A study of Mus musculus with 6 samples.

Results

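MiR-320, miR-484 and the conserved mirtrons miR-877, miR-1224 and miR-702 are miRNAs whose hairpins reach DICER1 without the cut by DROSHA. They were picked out of the deposited counts by name, as every mmu- entry of these 5 miRNA numbers with any arm suffix or none. This gave 9 mature miRNAs of 1364 listed, namely mmu-miR-320-3p, mmu-miR-320-5p, mmu-miR-484, mmu-miR-877-5p, mmu-miR-877-3p, mmu-miR-1224-5p, mmu-miR-1224-3p, mmu-miR-702-3p and mmu-miR-702-5p, written without the species prefix from here on. The counts came from small RNA libraries of the nucleus accumbens (NAc) of male C57BL/6N mice, 7 to 8 weeks old. The morphine group (3 libraries) was conditioned for 6 days with morphine (10 mg/kg, i.p.) in the conditioned place preference (CPP) test, a measure of drug-paired place memory, and the saline group (3 libraries) received saline only. NAc was dissected 0.5 h after the test on day 7. The series record describes 2 mice per library and a legend of the paper 1 mouse, so whether animals were pooled is unresolved, and p-values measure the spread between these libraries.

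Most animal miRNAs are cut first in the nucleus by DROSHA with its partner DGCR8, and then in the cytoplasm by DICER1. Mirtrons avoid the first cut because a short intron, once spliced out and debranched, folds into the hairpin by itself. MiR-320 and miR-484 avoid it because RNA polymerase II makes a short capped RNA that is already the hairpin, and the cap of the miR-320 hairpin favours its 3p arm. The mature strands then load into Argonaute proteins like any other miRNA.

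The sequences show how the arms sit in their precursors, and RefSeq (GRCm38) held them for 7 of the 9 miRNAs. MiR-320-3p and miR-320-5p are named only. Each mature strand is printed 5′ to 3′ with its seed, bases 2 to 8, in capitals.
miR-484: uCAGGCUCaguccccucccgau
miR-877-5p: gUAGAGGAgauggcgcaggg
miR-877-3p: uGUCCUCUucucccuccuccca
miR-1224-5p: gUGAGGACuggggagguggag
miR-1224-3p: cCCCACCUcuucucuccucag
miR-702-5p: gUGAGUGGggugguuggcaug
miR-702-3p: uGCCCACCcuuuaccccgcucc
No seed was shared between these 7 miRNAs, and none of the other listed miRNAs with a RefSeq sequence (1089 with sequence in all) carried any of them. The 5p arms of the mirtrons were purine-rich and the 3p arms pyrimidine-rich. C and U made up 90.9% of miR-877-3p, 85.7% of miR-1224-3p and 81.8% of miR-702-3p, against 20%, 19.0% and 33.3% of the matching 5p arms. Only 2 of the 1089 sequences, miR-877-3p included, had a pyrimidine share of 90.9% or more. GC content ranged from 59.1% in miR-877-3p to 68.2% in miR-702-3p, above the median of 50% over the 1089 miRNAs.

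The hairpins of the mirtrons and of miR-484 are printed with the mature arms in capitals, because the ends of a mirtron hairpin are the ends of its intron.
Mir877: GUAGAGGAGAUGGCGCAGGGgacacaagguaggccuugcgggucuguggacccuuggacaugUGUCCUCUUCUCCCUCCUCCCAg
Mir1224: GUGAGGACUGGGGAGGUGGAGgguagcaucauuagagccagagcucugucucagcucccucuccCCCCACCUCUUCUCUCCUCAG
Mir702: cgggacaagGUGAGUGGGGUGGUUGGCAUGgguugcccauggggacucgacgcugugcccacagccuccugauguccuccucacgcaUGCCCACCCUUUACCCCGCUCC
Mir484: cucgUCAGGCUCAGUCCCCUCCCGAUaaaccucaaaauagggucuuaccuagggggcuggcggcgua
In the GENCODE vM21 annotation (GRCm38), the Mir877 hairpin (chr17:35960730-35960814, minus strand) spans exactly intron 12 of Abcf1, which encodes an ATP-binding cassette protein that acts in translation. Likewise the Mir1224 hairpin (chr16:20604452-20604536, plus strand) spans exactly intron 22 of Vwa5b2. Both introns are 85 bases long, so both hairpins begin with the GU and end with the AG of a spliced intron. In both the 5p arm starts at base 1 of the intron, while the last base of the 3p arm is 0 bases (miR-1224) and 1 base (miR-877) from its end. Mir702 (chr5:136991433-136991541, plus strand) lies in intron 13 of Plod3, a lysyl hydroxylase of collagen. Its annotated hairpin starts 9 bases before this 102-base intron, but miR-702-5p again starts at base 1, and miR-702-3p stops 2 bases short of the intron's end. Mir320 (chr14:70443510-70443591, plus strand) overlaps no annotated gene and lies 62 bases upstream of Polr3d, a subunit of RNA polymerase III on the opposite strand. Mir484 (chr16:14159626-14159692, plus strand) lies 3582 bases upstream of Nde1, a centrosome and dynein regulator. It overlaps an exon of Marf1 on the opposite strand. Whether the counting separated strands is not given in the sources used here.

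**Figure D1:**
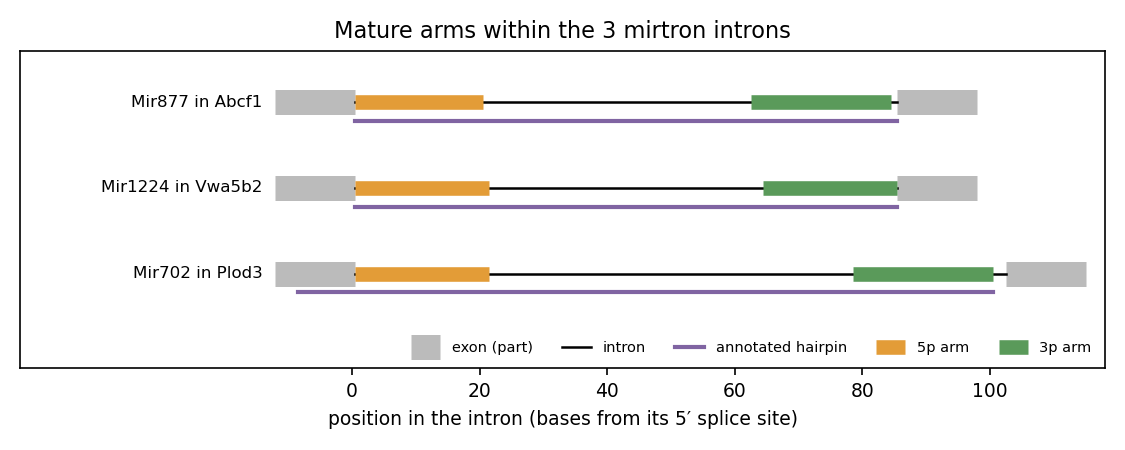
Each row is the intron that holds a mirtron, with distance in bases from its 5′ splice site on the horizontal axis, parts of the flanking exons in grey, the 5p arm in orange, the 3p arm in green and the annotated hairpin as a purple line. All 3 of the 5p arms start at base 1, and the 3p arms stop 0, 1 and 2 bases before the intron ends for miR-1224, miR-877 and miR-702.

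Library totals ranged from 4183333 to 9842050 counts, and 3 counts corresponded to 0.315 to 0.549 counts per M (CPM) after TMM scaling (trimmed mean of M values). A read covers a whole mature miRNA, so CPM carries no term for length. Saline replicate 2 stood apart, with Spearman correlations of 0.869 and 0.874 with the other saline libraries and of 0.907 to 0.926 with the morphine libraries, over 899 miRNAs. For the miRNAs picked out by name above, fitted changes that rest on it are given with and without it. Fold changes of other single miRNAs, and most ratios, are given with all libraries only. Neuronal marker miRNAs (miR-124-3p, miR-128-3p and miR-9-5p) summed to 127126 to 270801 CPM in the saline group and 176647 to 204976 CPM in the morphine group (1 of 3 called lower). Summed markers of endothelium (2 miRNAs, 1 called higher) were at 1485 to 5002 CPM in the saline group and at 10984 to 16264 CPM in the morphine group. The 2 moved in opposite directions. MiR-126a-3p had a log2 fold change (morphine against saline) of 2.42 and was called. MiR-126a-5p, from the other arm, was at -0.96, with overlapping groups, and was not called. Summed markers of erythrocytes (3 miRNAs, 1 called higher) were at 207.6 to 311 and 358 to 571 CPM. Those of microglia and white blood cells (4 miRNAs, 1 called lower) were at 238 to 758 and 125 to 154 CPM, and the liver marker miR-122-5p (called lower) was at 7.95 to 56.4 and 5.18 to 5.75 CPM. The summed markers of epithelium overlapped between the groups, at 6.08 to 28 and 23.7 to 199 CPM, but 2 of 3 were called higher. Those of oligodendrocytes and muscle, with 1 of 3 called lower in each, and of multiciliated cells, with 0 of 3 called, overlapped too. No marker on these lists was at 0 in all libraries. Their part in the changes described next was not tested, and in bulk tissue fewer cells of a type and less RNA per cell cannot be told apart.

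MiR-320-3p, miR-1224-5p, miR-877-3p and miR-702-3p fell in the morphine group by the criteria of the study for differentially expressed miRNAs (|log2 fold change| of at least 0.58 and unadjusted p of at most 0.05), and none rose. These 4 of 9 compare with 19.4% of all 1364 miRNAs tested that were called in either direction, and with 9.68% called lower. With p adjusted by Benjamini-Hochberg over all 1364 (quasi-likelihood test of edgeR), 1 of the 9, miR-877-3p, had an adjusted p under 0.05, against 5.21% of all miRNAs. That count was 5 without saline replicate 2, where 386 of all 1328 miRNAs tested also had an adjusted p under 0.05. It was 4 by library total, upper quartile or DESeq2, where 160, 153 and 156 of all 1364 did. It was 0 without saline replicate 1, where 94 of all 1344 did. Without morphine replicate 1, 2 or 3 it was 0 too, with 0 of 1321, 37 of 1336 and 54 of 1342 over all miRNAs. The 9 had a median log2 fold change (log2FC, morphine against saline) of -1.38, against -0.15 over all 1364. No miRNA was filtered out for low counts, and 7 of the 9 had at least 10 counts in total. With library totals as the scale, the fit moved the median of all miRNAs to -0.40 and the share of calls that were higher from 50% to 34.9%, and upper quartile scaling gave -0.35 and 37.7%. Relative to these medians the 4 calls remained lower under each scaling.

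**Figure D2:**
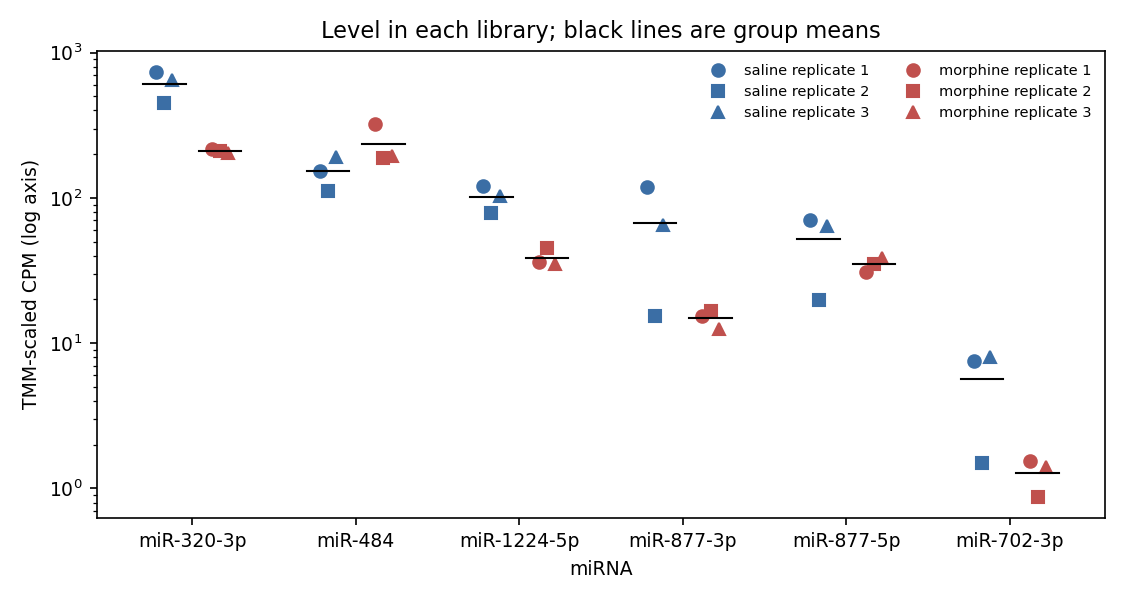
Each point is the TMM-scaled CPM (log axis) of a miRNA in 1 library, blue for saline and red for morphine, with the shape giving the replicate number and a black line the group mean (n = 3). All 3 morphine libraries lie below all saline libraries for miR-320-3p and miR-1224-5p, while for miR-877-3p and miR-702-3p saline replicate 2 lies close to the morphine libraries.

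MiR-320-3p was the most abundant of the 9 in the saline group, with 735, 451 and 647 CPM in saline replicates 1, 2 and 3. In morphine replicates 1, 2 and 3 it was at 216, 211 and 202 CPM. The groups did not overlap, which held for 2 of the 9 (also miR-1224-5p) and for 22.1% of all miRNAs. The means were 611 ± 145 CPM (SD, n = 3) and 209.8 ± 6.89 CPM (SD, n = 3). Its log2FC was -1.54 ± 0.45 (SE), and the adjusted p of 0.0504 in edgeR lay just outside the adjusted threshold. It was -1.72 without saline replicate 2 and -1.29 without saline replicate 1, the smallest change among the alternatives. By the unadjusted criteria it was called in each of the 15 alternatives that could alter it, which leaves out the GC offset with and without the block, since it has no GC value. Its partner arm, miR-320-5p, had a single read, in saline replicate 3, and none in the other libraries, which is under the level that 3 counts can show.

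MiR-484, like miR-320 from a short capped hairpin, was not called in either direction. It was at 153.6, 112 and 189.9 CPM in saline replicates 1, 2 and 3 and at 321, 189.01 and 193.6 CPM in morphine replicates 1, 2 and 3. The groups overlapped, with saline replicate 3 just above morphine replicate 2, and morphine replicate 1 was the highest of the 6. The means were 151.9 ± 38.9 CPM (SD, n = 3) and 234.7 ± 75.2 CPM (SD, n = 3), with a log2FC of 0.63 ± 0.47 (SE; adjusted p = 0.522, edgeR), within the spread between libraries. Without saline replicate 2 the log2FC of miR-484 was 0.45, and it was still not called. With an offset for GC content, fitted smoothly within each library, its log2FC was 1.40 (SE 0.42) and it was called higher.

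The mirtron miR-1224-5p was at 120.1, 79.0 and 103 CPM in saline replicates 1, 2 and 3. In morphine replicates 1, 2 and 3 it was at 36.1, 45.0 and 35.3 CPM, each below every saline library. The means were 100.8 ± 20.6 CPM (SD, n = 3) and 38.8 ± 5.37 CPM (SD, n = 3), and the log2FC was -1.38 ± 0.48 (SE; adjusted p = 0.0975, edgeR). Without saline replicate 2 it was -1.53, and the unadjusted call held. That call was lost without saline replicate 1 (-1.13), without morphine replicate 3 (-1.31) and with the GC offset (-0.56). MiR-1224-3p, which ends at the splice acceptor, was read 6, 5 and 3 times under saline and 7, 3 and 0 times under morphine, too few to show a difference at this depth.

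Both arms of miR-877 were counted in every library, and both were high in saline replicates 1 and 3 only. MiR-877-3p had 119.5, 15.3 and 65.4 CPM in saline replicates 1, 2 and 3. In morphine replicates 1, 2 and 3 it had 15.3, 16.7 and 12.6 CPM, so saline replicate 2 was inside the morphine range. The means were 66.8 ± 52.1 CPM (SD, n = 3) and 14.8 ± 2.10 CPM (SD, n = 3). The log2FC of -2.17 ± 0.60 (SE; adjusted p = 0.0437, edgeR) became -2.64 without saline replicate 2, -1.35 without saline replicate 1 and -1.35 with the GC offset, and the unadjusted call held in all 17 alternatives.

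MiR-877-5p had 70.8, 19.9 and 64.5 CPM in saline replicates 1, 2 and 3 and 31.0, 34.9 and 38.6 CPM in morphine replicates 1, 2 and 3. Saline replicate 2 was the lowest of the 6 and the other saline libraries the highest. The log2FC was -0.57 ± 0.54 (SE; adjusted p = 0.584, edgeR), and the call was not made. Without saline replicate 2 it was -0.96 and was called, and with the GC offset it turned to 0.45.

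MiR-702-3p was the rarest of the 4 that fell, with 41, 10 and 77 counts in saline replicates 1, 2 and 3. It had 14, 6 and 9 counts in morphine replicates 1, 2 and 3. In CPM, saline replicate 2 (1.5) lay between morphine replicate 1 (1.55) and morphine replicate 3 (1.41), so the groups overlapped. The log2FC was -2.13 ± 0.73 (SE; adjusted p = 0.0856, edgeR), -2.58 without saline replicate 2, and -0.85 with the GC offset, where the call was lost. MiR-702-5p, the arm at the splice donor, was read 1, 0 and 0 times under saline and 2, 0 and 0 times under morphine, which allows no comparison.

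**Figure D3:**
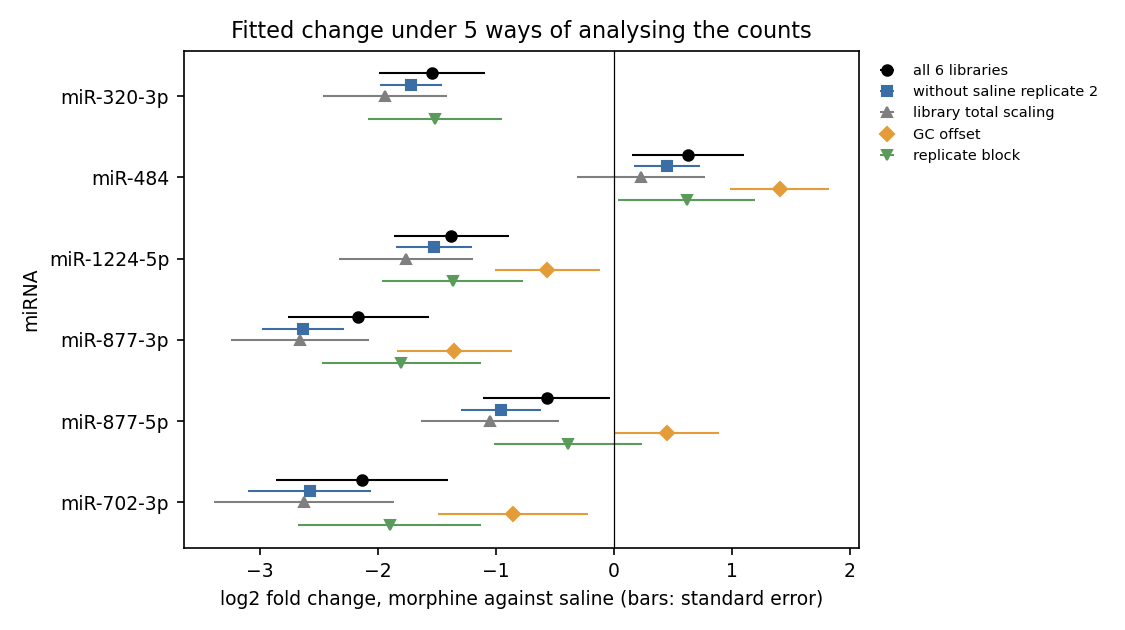
Points give the fitted log2FC (morphine against saline) and bars its standard error for 6 miRNAs, with all 6 libraries and TMM scaling (black) and under 4 alternatives. MiR-320-3p, which has no GC value here, lay between -1.94 and -1.51 in those drawn (-1.29 without saline replicate 1, not drawn), while the GC offset moved the other 5 upward, to 1.40 for miR-484 and 0.45 for miR-877-5p.

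The order of the levels within the group differed between saline and morphine. In all 3 saline libraries miR-320-3p was above miR-484, miR-484 above miR-1224-5p, and miR-1224-5p above miR-877-3p. The arms of miR-877 were not separated there, with miR-877-3p the higher in 2 of 3 libraries. MiR-702-3p and then miR-1224-3p followed. In the morphine group miR-484 and miR-320-3p were not separated, since miR-484 was higher in 1 of 3 libraries only, although it had the higher mean. MiR-1224-5p and miR-877-5p were also close, with miR-1224-5p higher in 2 of 3 libraries, while miR-877-5p was above miR-877-3p in all 3. The 9 miRNAs together took 0.158%, 0.0544% and 0.143% of the counts of saline replicates 1, 2 and 3 and 0.0572%, 0.0466% and 0.0408% of morphine replicates 1, 2 and 3. Of these counts, miR-320-3p held 60% to 66.4% in the saline libraries and 34.7% to 42.4% in the morphine libraries. MiR-484 held 12.7% to 17.6% and 38.0% to 51.7%.

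Ratios of counts within a library need no scaling between libraries, and they were compared for the 10 pairs among the 5 miRNAs with at least 10 counts in every library, a comparison chosen after the values were seen. There were 4.79, 4.02 and 3.41 reads of miR-320-3p per read of miR-484 in saline replicates 1, 2 and 3. In morphine replicates 1, 2 and 3 there were 0.672, 1.12 and 1.05. The log2 ratio was 2.01 ± 0.24 (SD, n = 3) and -0.12 ± 0.40 (SD, n = 3), a difference of -2.13 (exact two-sided permutation test, p = 0.1, the smallest that 3 against 3 allow). Saline replicate 2 lay between the other saline libraries here, and the difference was -2.13 without it as well.

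MiR-320-3p and miR-1224-5p, of different precursor classes, stood in nearly the same ratio in every library. There were 6.12, 5.71 and 6.27 reads of miR-320-3p per read of miR-1224-5p under saline and 5.99, 4.69 and 5.73 under morphine (difference of the log2 ratio -0.15, exact permutation test, p = 0.3). The SD of this log2 ratio over the 6 libraries was 0.15, and 0.0983% of the 103740 pairs of miRNAs with at least 10 counts in every library had an SD as small. This share does not measure how unusual the pair is, since the pair was singled out after its values were seen. Its counts of 225 to 6173 a library also carry less counting error than those of the rarer miRNAs among all pairs. For each read of miR-1224-5p there were 1.28, 1.42 and 1.84 reads of miR-484 in the saline libraries, against 8.91, 4.2 and 5.48 in the morphine libraries (difference of the log2 ratio 1.98, exact permutation test, p = 0.1).

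The groups did not overlap for 6 of the 10 ratios, against 37.1% of all pairs. A difference of at least 2.13 was seen in 19.8% of all pairs, which share libraries and members.

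**Figure D4:**
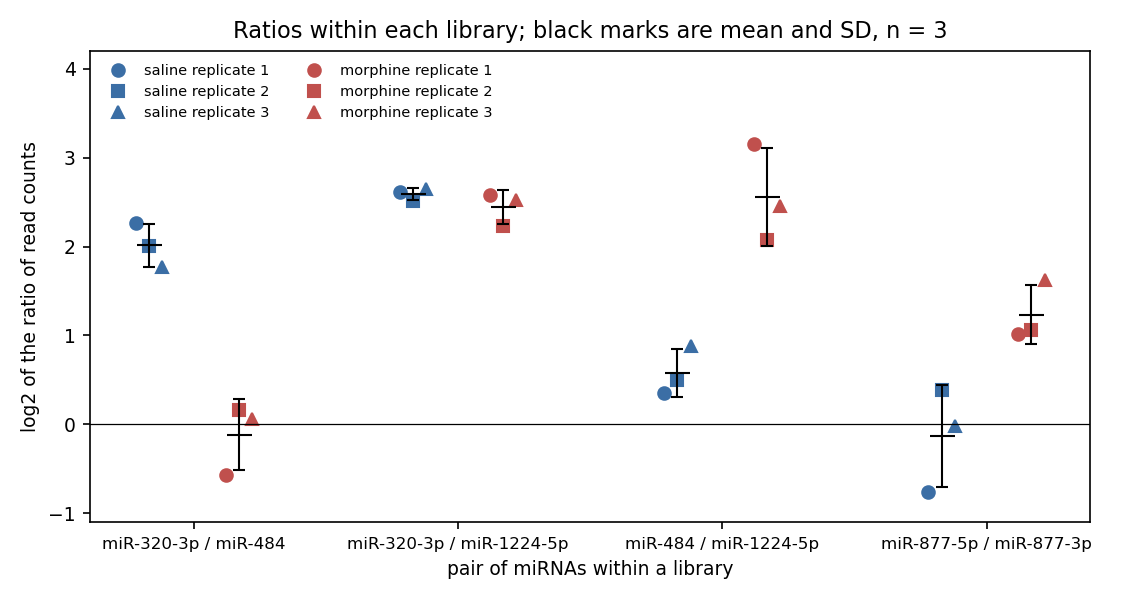
Points give the log2 ratio of read counts of a pair of miRNAs in each library (blue saline, red morphine, shape for the replicate number), and black marks the mean and SD (n = 3). The ratio of miR-320-3p to miR-484 is between 1.77 and 2.26 in the saline libraries and between -0.57 and 0.16 in the morphine libraries, while that of miR-320-3p to miR-1224-5p stays between 2.23 and 2.65 in all 6.

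The balance of the arms of a hairpin is the same kind of measure. MiR-877 had 0.593, 1.30 and 0.986 reads of the 5p arm per read of the 3p arm in saline replicates 1, 2 and 3. It had 2.03, 2.09 and 3.08 in morphine replicates 1, 2 and 3, so the 5p arm was the more abundant in each morphine library and in 1 saline library. The log2 ratio was higher by 1.36 in the morphine group (exact permutation test, p = 0.1, the smallest possible), and by 1.62 without saline replicate 2. Such a separation was common, since the groups did not overlap for 47.9% of the 117 hairpins with at least 10 counts of each arm in every library, and 44 of the 117, miR-877 included, had a difference at least as large. For miR-1224 the 5p arm exceeded the 3p arm by 46.6 to 328 times in the 5 libraries with any 3p count, and the groups overlapped (exact permutation test, p = 0.8). For miR-702, 4 of 6 libraries had no 5p read, and its balance (exact permutation test, p = 0.1) rests on the 0.5 count added to each arm.

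The 5 miRNAs were also set beside all other miRNAs with at least 10 counts in every library, by Pearson's correlation of log2(CPM + 1) over the 6 libraries, as a description of likeness. MiR-423-3p was closest to both miR-320-3p (r = 0.996) and miR-1224-5p (r = 0.990), and itself had a log2FC of -1.40 ± 0.46 (SE; adjusted p = 0.071, edgeR). Next for miR-320-3p were miR-330-3p (r = 0.992) and miR-221-3p (r = 0.985), and for miR-1224-5p miR-27b-5p (r = 0.989) and miR-212-5p (r = 0.984). Their log2FCs were -2.59, -1.16, -1.36 and -0.41, so a high r did not mean a change of the same size. Between miR-320-3p and miR-1224-5p r was 0.988, and between miR-320-3p and miR-484 it was -0.54. MiR-484 was closest to miR-3065-3p (r = 0.979), miR-338-5p (r = 0.961) and miR-331-3p (r = 0.903), whose log2FCs were 0.30, 0.22 and 0.24, none of them called. MiR-193b-5p, miR-7a-2-3p and miR-667-3p were closest to miR-877-3p (r = 0.996, 0.985 and 0.981), with log2FCs of -1.31, -0.995 and -1.66. MiR-485-3p, miR-1843b-3p and miR-679-5p were closest to miR-877-5p (r = 0.995, 0.994 and 0.990), with log2FCs of -0.82, -0.75 and -0.12. All r values are over n = 6 libraries that share the same 2 groups.

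GC content moved with the changes, as the plot of change against GC content shows. Over 366 miRNAs with a sequence and at least 300 counts in total, the log2FC correlated with GC content at r = -0.26 (Spearman's rho -0.32) across miRNAs, which share libraries and are not independent. Of the 57 with a GC content of at least 60%, 21 were called lower and 3 higher in the morphine group, with a median log2FC of -0.82, against -0.15 over the 366. When each library was given an offset fitted to GC content, miR-877-3p remained lower (-1.35), the calls of miR-1224-5p (-0.56) and miR-702-3p (-0.85) were lost, and miR-484 was called higher. As a check of the whole group the offset is void, because 77.8% of its members have a sequence, and miR-320-3p received no offset of its own.

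**Figure D5:**
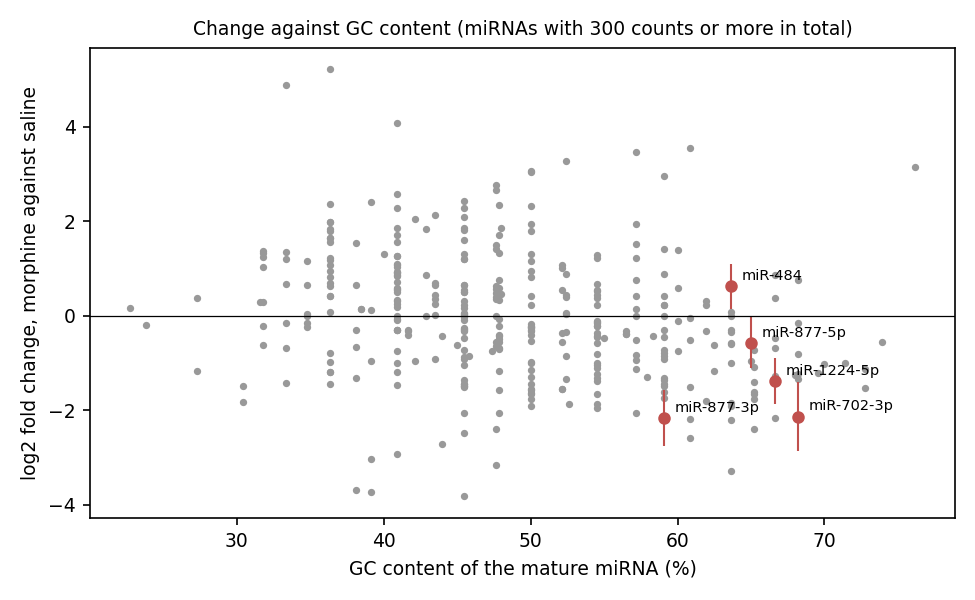
Each grey point is a miRNA with at least 300 counts in total, by the GC content of its mature sequence (percent) and its log2FC (morphine against saline), and red points with standard errors are mirtron arms and miR-484 (miR-702-3p has 157 counts). At 59.1% to 68.2% GC, miR-484 lies at 0.63 and the mirtron arms between -2.17 and -0.57.

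Among 5 other mature miRNAs from unusual precursors (miR-451a and the arms of miR-664 and miR-1839), 2 were called, 1 higher and 1 lower, against 19.4% of all. MiR-451a, cut by the Argonaute protein AGO2 in place of DICER1, rose, at a log2FC of 1.57 ± 0.51 (SE; adjusted p = 0.0698, edgeR). It is also the erythrocyte marker called higher above, and the part of blood cells in its rise was not tested. MiR-664-3p, from an RNA of the small nucleolar kind, fell, at a log2FC of -1.46 ± 0.51 (SE; adjusted p = 0.0936, edgeR). It had 1920, 678 and 2676 counts under saline against 797, 521 and 646 under morphine, with saline replicate 2 the lowest saline library. Neither arm of miR-1839, also of small nucleolar RNA origin, passed the test (-0.07 for the 5p arm and 0.69 for the 3p arm), nor did miR-664-5p (-1.13). Of 250 listed miRNAs numbered miR-6896 to miR-7094, taken as predicted tailed mirtrons, 94 had at least 10 counts in total. Of the 250, 16 (6.40%) were called, 3 higher and 13 lower. Their median log2FC was -0.85, and -0.52 over the 94. The share called is not comparable with the 19.4% over all miRNAs, of which 899 of 1364 had at least 10 counts. MiR-7043-3p rose (22, 11 and 5 counts under saline against 120, 101 and 66 under morphine; log2FC 2.66 ± 0.68 (SE), adjusted p = 0.0331 in edgeR). MiR-7080-3p fell (82, 11 and 140 against 12, 9 and 15 counts, log2FC -2.64 ± 0.73 (SE), adjusted p = 0.0435 in edgeR), and miR-6953-3p fell (16, 4 and 20 against 1, 1 and 1 counts, log2FC -3.62 ± 1.15 (SE), adjusted p = 0.0437 in edgeR).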

How the data were processed

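The authors trimmed adapters, dropped poor reads and those shorter than 15 or longer than 35 nt, took out other RNA classes and repeats with Bowtie, and compared the rest with miRBase. The genome build, the miRBase release and the Bowtie version are not given in the sources used here. The deposited read counts per mature miRNA are raw and are given for each library separately. Whether a library pools animals is unresolved, as stated in the opening. The deposited TPM values are each count per M counts of its library and were not used. Libraries were grouped by their titles.
All 1364 miRNAs with at least 1 count were fitted together with edgeR 4.0.16 (R 4.3.3), TMM scaling, the quasi-likelihood test and no covariate, and the fit was tested on simulated data. Library totals of 4183333 to 9842050 set the floor of 3 counts, and this floor covers counting error only, since reads carry no molecular identifiers. Ratios were tested by exact permutation (scipy 1.17.1). The GC offset was a loess fit in each library over 366 of 429 miRNAs with at least 300 counts (79.8% of all tested had a RefSeq sequence, so it is void over the whole table). Text names all members, the 3 most alike miRNAs for each member with 10 counts in every library, miRNAs sharing a seed, and the called members of both lists with the smallest p, at most 2 in each direction for the tailed mirtrons. Members and lists were chosen with earlier results of these data known. Alternatives were scaling by library total, upper quartile or relative log expression, DESeq2 1.42.0, filterByExpr, miRBase names only, no top 10 miRNAs, thinning, the replicate block, the GC offset with and without the block, and leaving out each library.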

Additional observations from a re-analysis of the deposited data

How the results depend on the processing

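The members called numbered 3 to 5 over 17 alternatives (4 with all libraries). They were not always the same members, and with the GC offset, with or without the block, 1 was higher (miR-484) and 2 lower. Leaving out 1 library gave 3 to 5, with 5 without saline replicate 2. Calls over all miRNAs, 264 with all libraries, ranged from 176 (without morphine replicate 1) to 492 (without saline replicate 2). Those with an adjusted p under 0.05 (edgeR) were 71 with all libraries, 160 by library total, 153 by upper quartile, 156 with DESeq2, 110 among miRBase names, 125 after thinning, 126 with the GC offset, 32 with the block, and 0 (without morphine replicate 1) to 386 (without saline replicate 2) when 1 library was left out; without morphine replicate 1, 176 still met the unadjusted criteria. Among the members that count was 1 with all libraries, 0 with the block and 0 to 5 when 1 library was left out (5 without saline replicate 2). MiR-877-3p was called in all 17, miR-702-3p in 15 and miR-1224-5p in 13, and miR-320-3p in all 15 that could alter it, since the GC offset, with or without the block, gave it no offset. The GC offset turned miR-877-5p to 0.45, and to 0.45 with the block. MiR-702-5p, with 3 reads in all, turned to -1.77 after thinning to 4183333 counts, a value that rests on fewer reads, and to between -1.90 and 2.65 when 1 library was left out. The arm balance of miR-1224 (-0.22) ranged from -1.18 to 0.51 without 1 library. That of miR-877 ranged from 1.05 to 1.62, that of miR-702 from 1.10 to 2.54 and the log2 ratio of miR-320-3p to miR-484, added after the data were seen, from -2.27 to -1.90. The cause of these moves was not tested.

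Same-numbered libraries deviated from their group means with correlations of -0.23, -0.28 and 0.14. These values show no pairing by number, but deviations from the mean of 3 libraries depend on each other and cannot settle it. With the replicate block in the fit the same number of members was called, 4, and 0 had an adjusted p under 0.05 (edgeR), against 1 without the block. Over all miRNAs 179 were called with the block, 110 higher and 69 lower. For the ratios, the mean of the paired differences equals the difference of the group means by construction. It was 1.36 for the arms of miR-877 and cannot show whether pairing matters (exact sign-flip test, p = 0.25, the smallest that 3 pairs allow). Depth limits miR-320-5p, miR-702-5p and miR-1224-3p, for which no difference could be shown.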
